A study of Mus musculus with 2 samples.

Results

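The nuclear genes for subunits of respiratory complexes I, III and IV and of the ATP synthase, also called complex V, were followed in polyadenylated RNA of the mouse adrenal gland. Members were chosen by symbol and not by their values. Of 43346 Ensembl genes in the deposited tables, 91 carried a symbol of the Nduf families a, b, c, s or v, of the Uqcr, small-subunit Cox or Atp5 families, or Cyc1. Of these, 10 were not protein-coding and were left out, which gave 81 members: 35 of complex I, 9 of complex III, 20 of complex IV and 17 of complex V. Ndufa4 and its paralog Ndufa4l2 were counted with complex IV, where the Ndufa4 protein is known to sit. The subunits of complex II, the acyl carrier protein gene Ndufab1 and the genes of the mitochondrial genome are not members and serve below as comparison lists.

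The gland belonged to the inbred strain C57BL/6J, from a female of 10 weeks that the labels call adult, and its RNA was prepared with a kit made for fatty tissue. Whether glands were pooled is not given in the labels. There was 1 group, with no treatment and no second genotype. It held 2 libraries labelled as technical replicates of the same biological sample, here called replicate 1 and replicate 2, and the labels date the second to 2015. All values below therefore describe 2 libraries of n = 1 biological sample, and library and date cannot be told apart. The libraries held 28267651 and 17376660 rounded expected counts, of which genes of the mitochondrial genome took 40.06% and 10.64%. Nuclear genes, with 15 nuclear copies of mitochondrial genes set aside, held 13260900 and 14716667 counts. The remaining counts lay on those copies. TPM is a level per transcript length on a scale with the same sum in each library. Nuclear genes without the copies therefore shared only 174940 TPM in replicate 1 against 616380 in replicate 2. Markers of adrenal cortex summed to 7305 and 35688 TPM and markers of adrenal medulla to 344 and 4506 TPM, with the medullary enzyme gene Pnmt at 0 counts in replicate 1 and 4291 in replicate 2. These sums differ between libraries labelled as technical replicates of the same biological sample, and the cause was not tested. The library ratio also moved with GC content over all genes, as described below. Within a library of whole tissue, the number of cells of a type and the RNA per cell cannot be told apart.

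The respiratory chain passes electrons from NADH through complex I, ubiquinone, complex III, cytochrome c and complex IV to oxygen, and pumps protons as it does so. Complex V lets the protons flow back and makes ATP. Most subunits are encoded in the nucleus, a few catalytic ones in the mitochondrial genome, so each complex other than complex II draws on both. In the adrenal cortex the same inner membrane also holds the first and last cytochrome P450 enzymes of steroid synthesis. Several small subunits of complex IV exist as paralogs with known tissue preferences: Cox6a2, Cox7a1 and Cox8b in heart and skeletal muscle (Cox7a1 and Cox8b also in brown fat), Cox4i2 in lung and Cox6b2, Cox7b2 and Cox8c in testis.

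A pair of small complex III subunits, the members with the largest and the smallest ratio of replicate 2 to replicate 1, differed in base composition. Uqcr11 (ENSMUSG00000020163.8, GRCm38 chr10:80402997-80406830, minus strand) had 0 counts in replicate 1 and 1881 in replicate 2. Uqcrb (ENSMUSG00000021520.4, chr13:66900617-66905378, minus strand) had 5769 and 2145. The whole coding sequence of Uqcr11 (171 bases, 60.2% G and C) and the first 171 of the 336 coding bases of Uqcrb (42.1% G and C in the stretch shown) are exonic sequence, printed 5′ to 3′ with every G and C in capitals.
Uqcr11: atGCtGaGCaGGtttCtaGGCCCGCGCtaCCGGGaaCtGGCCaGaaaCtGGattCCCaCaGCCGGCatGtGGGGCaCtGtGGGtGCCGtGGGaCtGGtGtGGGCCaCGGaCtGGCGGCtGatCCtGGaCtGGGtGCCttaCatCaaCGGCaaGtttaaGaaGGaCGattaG
Uqcrb: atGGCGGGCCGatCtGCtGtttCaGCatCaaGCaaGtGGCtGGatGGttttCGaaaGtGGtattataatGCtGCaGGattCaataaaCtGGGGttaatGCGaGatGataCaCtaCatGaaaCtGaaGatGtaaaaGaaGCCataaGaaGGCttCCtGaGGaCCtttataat

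In replicate 2 nearly all subunit mRNAs lay in a narrow, high band, whereas in replicate 1 they were scattered over several orders of magnitude. The median member stood at 14.4 TPM in replicate 1 and 248.8 TPM in replicate 2. The upper quartile was 28.4 times the lower quartile in replicate 1 and 2.68 times in replicate 2. Of the 81 members, 66 reached 1 TPM in replicate 1 and 79 in replicate 2, and 66 did so in both libraries. Cox7b2 and Cox8c had 0 counts in both libraries, which allows up to 3 counts in each. In all, 9 members had 3 counts or fewer in replicate 1, and 6 of those had none.

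The members took 0.602% of nuclear counts in replicate 1 (95% exact binomial interval 0.598 to 0.607, counting error only) and 1.29% in replicate 2 (1.28 to 1.30). On the TPM scale, with mitochondrial genes and their nuclear copies set aside, their share was 2.36% and 3.96%. Ranked by TPM among nuclear genes, 29 members were in the top 1000 in replicate 1 and 71 in replicate 2, and the median rank was 2467 and 392. The most abundant member also differed. It was Uqcrb in replicate 1, at 500.2 TPM, and Atp5b, which encodes the catalytic beta subunit of the ATP synthase, in replicate 2, at 1374 TPM. Across the 75 members above 0 in both libraries, log2 TPM in the libraries had a Spearman rho of 0.372 and a Pearson r of 0.476, given as a description across genes of 1 tissue sample.

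**Figure D1:**
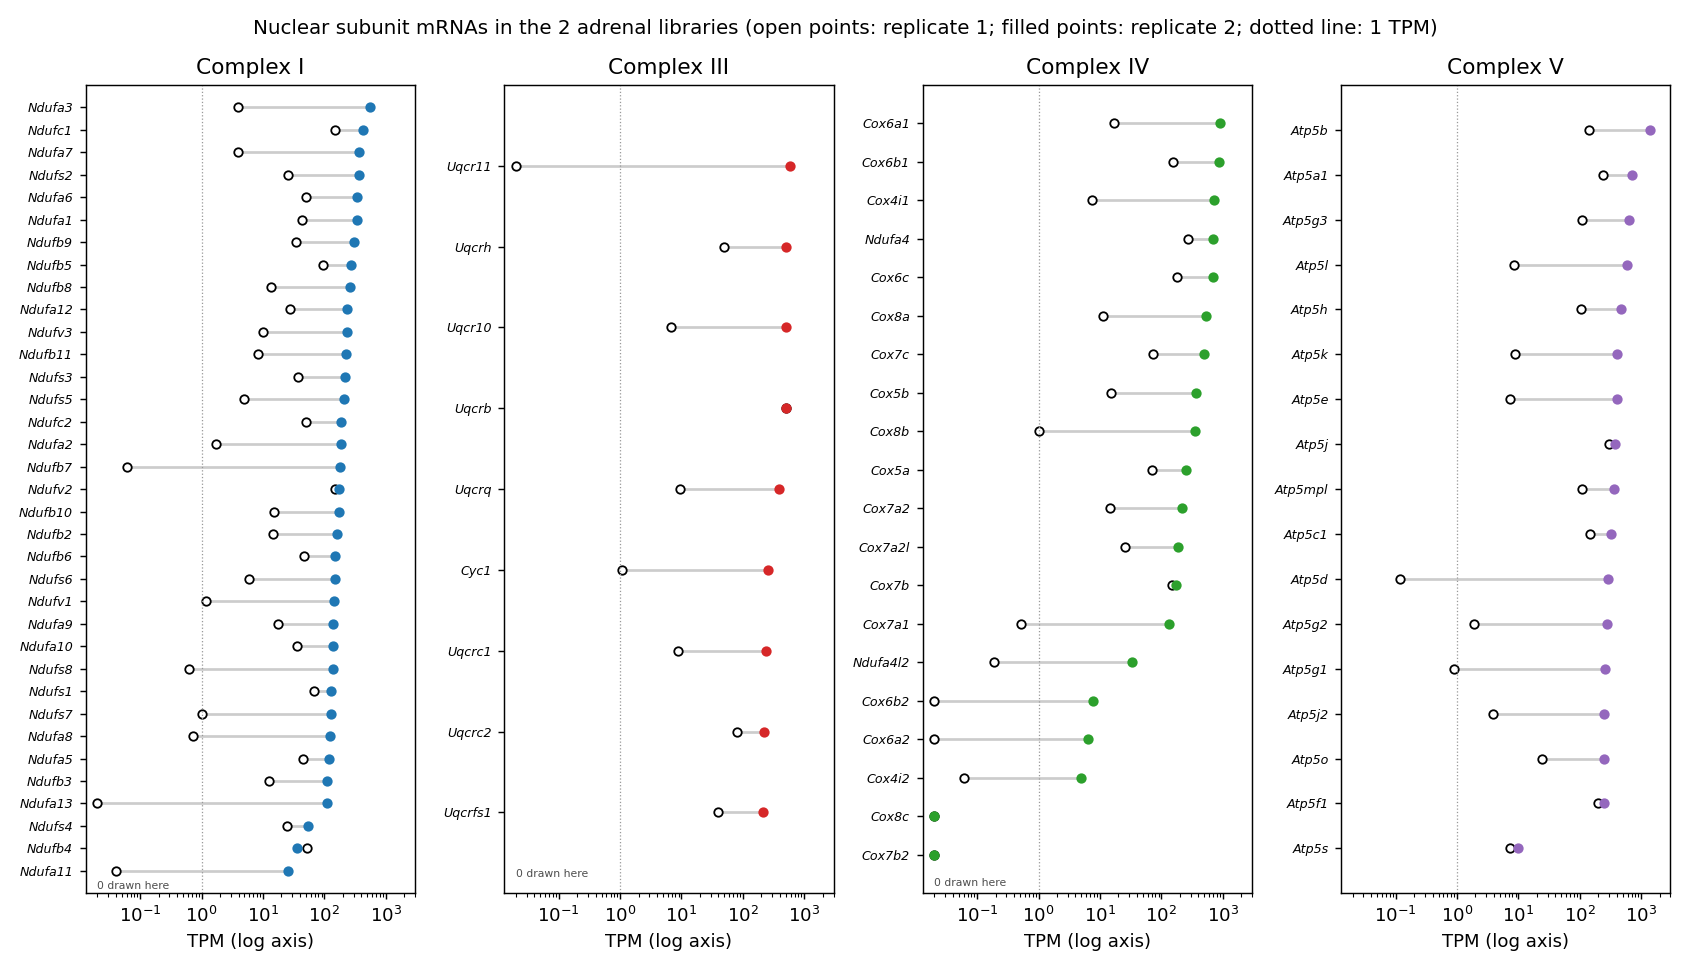
Level of each of the 81 members in TPM (log axis, with 0 drawn at the left edge), by complex, with open points for replicate 1, filled points for replicate 2 and a dotted line at 1 TPM. Members are sorted by replicate 2, where most lie between 100 and 1000 TPM, while the open points spread from 0 to 500.2 TPM, and for Uqcrb the 2 points coincide.

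By complex, the median TPM in replicate 2 was 381 for complex III, 357 for complex V, 232 for complex IV and 176 for complex I. The order in replicate 1 was another one: 24.3 for complex V, 15.3 for complex I, 12.7 for complex IV and 9.53 for complex III. Without its 8 tissue-restricted paralogs, complex IV had a median of 48.2 TPM in replicate 1 and 513 TPM in replicate 2, the highest of the 4 in each library. Within a complex the levels were far more even in replicate 2. The ratio of the quartiles was 11.2 in replicate 1 and 1.85 in replicate 2 for complex I, 7.39 and 2.06 for complex III, 10.0 and 2.93 for complex IV without those paralogs, and 19.3 and 1.84 for complex V.

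More subunit genes passed the test between the libraries as higher in replicate 2 than as lower. A gene was called when a two-sided exact binomial test, Benjamini-Hochberg adjusted over all 14358 genes with at least 20 counts in sum, gave an adjusted p under 0.05 and the fold after TMM scaling of the library sizes was at least 2. Of the 79 members tested, 50 were called higher in replicate 2, 5 were called lower and 24 were not called. Over all tested genes, 36.5% were called higher and 27.7% lower. The members' median log2 ratio of replicate 2 to replicate 1 was 2.04, against 0.10 for all tested genes. The 5 lower members were Ndufb4, Ndufv2, Uqcrb, Atp5j and Atp5s. None of these calls held throughout: with the trend of the ratio with GC content removed, Ndufv2 (-0.07), Uqcrb (-0.14) and Atp5s (0.65) were not called, and on coding transcripts alone Ndufb4 (1.34) and Atp5j (1.57) were called higher. The test sets library against library, with no replicate animal behind it, and its p-values hold counting error alone.

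The split depended on how the libraries were scaled. With plain total-count scaling, which moved the median of all tested genes by more than 1 log2 unit, from 0.10 to 1.24, 63 members were called higher and 0 lower, against 54.1% and 3.98% of all genes. With the trend of the ratio with transcript length removed, the split was 36 higher and 23 lower, against 31% and 34.4% of all genes. With the trends with both GC content and length removed, it was 33 and 5, against 11.8% and 12.3%. DESeq2 size factors gave 50 and 6, against 35.7% and 29%.

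GC content moved with the library ratio, in the members as in all genes. Over the 79 members, whose transcripts ran from 39.0% to 60.9% G and C, the log2 ratio and GC content had a Spearman rho of 0.828 and a Pearson r of 0.808. Over the 14317 tested genes with a GC value rho was 0.889. Both are descriptions over genes that share the same 2 libraries. Of the 38 tested members above 52% GC, 36 were called higher and 0 lower, against 81% and 0.996% of all genes above 52%, and the median log2 ratio was 4.79, against 2.65. Between 48% and 52%, 9 of 21 were called higher and 2 lower, against 20% and 8.04% of all genes. Between 44% and 48%, 5 of 14 were called higher and 1 lower, against 1.77% and 43.5%. Under 44%, 0 of 6 were called higher and 2 lower, against 0.232% and 90%. In replicate 1 the members' log2 TPM fell in rank with GC content (rho -0.70 over 75 members), and in replicate 2 rho was -0.07. Log2 transcript length and the ratio had a rho of -0.093 over the members alone. Removing the length trend of all tested genes still changed the members' calls, from 50 higher and 5 lower to 36 higher and 23 lower.

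With the GC trend of all tested genes removed, 42 members were called higher and 4 lower, while 12.9% of all genes were called higher and 11.9% lower. Of the 50 members first called higher, 38 were again called higher and 2, Ndufb9 and Cox6a1, were called lower. The median log2 ratio of the members was then 1.21, against -0.03 for all genes. By complex it was 1.03 for complex I, 2.29 for complex III, 1.02 for complex IV and 1.40 for complex V. The part of GC content in each member's ratio was not tested beyond this correction.

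**Figure D2:**
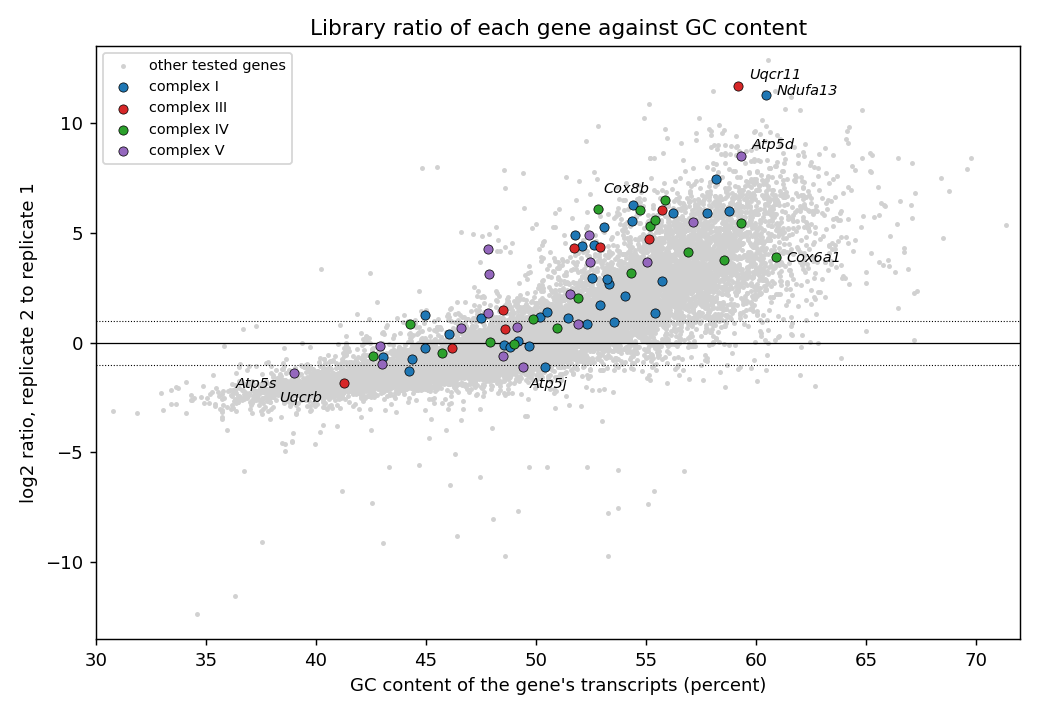
Log2 ratio of replicate 2 to replicate 1 for each tested gene (vertical axis) against the GC content of its transcripts in percent (horizontal axis), with the members coloured by complex, the other tested genes in grey and dotted lines at a 2-fold difference. The members follow the rising cloud of all genes, from Uqcrb and Atp5s at the low end to Uqcr11 and Ndufa13 at the top.

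In complex I, both the electron-carrying core and the accessory shell held members far lower in replicate 1. Of the 35 members, 23 were called higher in replicate 2 and 2 lower, with a median log2 ratio of 1.41, which was -0.0059 with the length trend removed. The 7 nuclear core subunits carry the flavin and iron-sulfur clusters or the ubiquinone site, and 5 of them were called higher. Ndufv1, the flavin-binding subunit that takes electrons from NADH, had 31 counts in replicate 1 and 2536 in replicate 2 (1.16 and 142.5 TPM), a log2 ratio of 5.90. Its partner Ndufv2 had 3683 and 2029 counts (146.2 and 175.7 TPM) and was called lower, with a log2 ratio of -1.29. These neighbours at the NADH site were thus far apart in replicate 1 and close together in replicate 2. Ndufs1, the third subunit of that module, had 4633 and 3765 counts and was not called. Ndufs7 and Ndufs8, which hold the last iron-sulfur clusters before ubiquinone, had 10 and 884 counts and 16 and 1325 counts, both called higher.

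Among the 28 accessory subunits of complex I, 18 were called higher, 1 lower and 9 neither. Their TPM ran from 0 to 151.2 in replicate 1 and from 25.8 to 560.1 in replicate 2. Ndufa13, also known as GRIM-19 (chr8:69894180-69902558, minus strand), had 0 counts and 1426 counts, at least 352-fold higher in replicate 2 against a floor of 3 counts in replicate 1. Ndufa11, a membrane-arm subunit, had 3 and 797 counts, a ratio of 172 with a 95% counting interval of 67.1 to 956. Ndufa3 had 3.90 and 560.1 TPM and was the highest complex I member in replicate 2. Ndufc1 (151.2 and 433.6 TPM), Ndufa6 (50.6 and 345.6 TPM) and Ndufs4 (24.3 and 54.7 TPM), the last known for its loss in Leigh syndrome, were not called. The GC correction left 18 of the 35 complex I members called higher and 2 lower, Ndufb4 and Ndufb9.

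Complex III held the members with the highest and the lowest log2 ratio, Uqcr11 and Uqcrb. Of its 9 members, 6 were called higher, 1 lower and 2 neither, with a median log2 ratio of 4.32. Cytochrome c1, the heme subunit encoded by Cyc1, had 36 and 3178 counts (1.08 and 253.6 TPM). The Rieske iron-sulfur subunit Uqcrfs1 had 1526 and 3153 counts (39.1 and 215.4 TPM) and was not called, at a log2 ratio of 0.61. The core proteins, which face the matrix, differed in the same way: Uqcrc1 had 126 and 4419 counts and was called higher, while Uqcrc2 had 3985 and 4472 and was not called. In replicate 2 these 4 larger subunits lay between 215.4 and 253.6 TPM.

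The 5 small subunits of complex III lay between 381 and 586 TPM in replicate 2. In replicate 1 they were at 0 TPM (Uqcr11), 6.73 (Uqcr10), 9.53 (Uqcrq), 49.7 (Uqcrh, the hinge protein near cytochrome c1) and 500.2 TPM (Uqcrb). Uqcr11, the GC-rich sequence shown above, was at least 464-fold higher in replicate 2 against a floor of 3 counts. Uqcrb, the AT-rich one, was called lower with a log2 ratio of -1.86, although its TPM was 500.2 and 497.9. After the GC correction, 6 members were called higher and 0 lower. The log2 ratio of Uqcrb was then -0.14, while Uqcr11 at 7.39 and Cyc1 at 3.31 were still called higher.

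In complex IV no member was called lower, against 1 with the GC trend removed and 6 with the length trend removed. Of its 18 tested members, 12 were called higher, and 6 of these 12 were tissue-restricted paralogs that had 6 counts or fewer in replicate 1. Among the 11 small subunits of general type, 5 were called higher: Cox4i1 (91 and 4949 counts), Cox5b (198 and 2433), Cox6a1 (213 and 4325), Cox7a2 (271 and 1511) and Cox8a (131 and 2380). The other 6 were not called, among them Cox6b1 (155.1 and 876 TPM), Ndufa4 (267 and 699.8 TPM) and Cox7b (148.7 and 172.8 TPM). Cox7a2l, which joins complex III to complex IV in supercomplexes and is known to carry a shortened allele in C57BL/6 mice, had 752 and 2114 counts, just past the fold minimum at a log2 ratio of 1.06. Cox6a1 at 16.7 and 909.3 TPM had the highest TPM of complex IV in replicate 2. Its call changed direction with the GC trend removed, from a log2 ratio of 3.91 to -1.05. With that correction 7 complex IV members were called higher and 1 lower.

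The muscle and brown fat paralogs Cox8b and Cox7a1 held a larger share of their groups in replicate 2 than in replicate 1. Cox8b (chr7:140898945-140900446, minus strand) had 6 counts in replicate 1 and 784 in replicate 2. That was 1.03 TPM (deposited interval 0.40 to 2.04) and 359.7 TPM (deposited interval 311.9 to 358.5, which is drawn around a separate posterior mean). It made up 8.53% of the Cox8 group's summed TPM in replicate 1 and 40.1% in replicate 2, and 4.38% and 24.8% by counts. Cox7a1 (chr7:30184144-30186078, plus strand) had 3 and 298 counts, a ratio of 64.5 with a counting interval of 24.9 to 359, and took 1.26% and 25.03% of its group by TPM and 0.29% and 7.60% by counts. In the same group Cox7a2 held 35.7% and 39.7% and Cox7a2l 63.0% and 35.2%. Cox6a2, the third muscle form, had 0 and 38 counts, at least 9.38-fold higher (adjusted p = 2.2e-09, exact binomial test with Benjamini-Hochberg adjustment), and stayed at 0.71% of its group in replicate 2.

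The coding sequences of Cox8a and Cox8b differ over much of their length, and they are shown because their shares of the group differed between the libraries. The sequences, 210 and 213 bases long, had the same base in 115 of 219 aligned columns. They are printed with the bases that have no identical partner in the other paralog in capitals.
Cox8a: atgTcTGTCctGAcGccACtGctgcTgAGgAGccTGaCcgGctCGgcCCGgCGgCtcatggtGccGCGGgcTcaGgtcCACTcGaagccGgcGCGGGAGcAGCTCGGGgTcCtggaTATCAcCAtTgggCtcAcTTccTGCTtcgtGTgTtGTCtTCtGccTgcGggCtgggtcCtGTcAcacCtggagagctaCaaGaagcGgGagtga
Cox8b: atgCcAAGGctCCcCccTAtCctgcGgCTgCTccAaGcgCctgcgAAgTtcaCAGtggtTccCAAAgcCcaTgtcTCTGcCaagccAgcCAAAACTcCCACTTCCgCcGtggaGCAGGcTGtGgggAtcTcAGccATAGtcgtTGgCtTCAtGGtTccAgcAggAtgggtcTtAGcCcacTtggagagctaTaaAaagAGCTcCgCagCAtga

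Markers of muscle passed the test in the same direction as these paralogs, whereas those of fat were mixed. The 8 skeletal muscle markers had from 52.2% (Tnnt3) to 60.9% (Ckm) G and C. Of all tested genes above 52%, 81% were called higher. The brown adipocyte markers called lower, Dio2 and Ppargc1a, had 43.4% and 44.9% G and C. The summed TPM of each list is read against a nuclear total that was itself larger in replicate 2. The 8 skeletal muscle markers summed to 13.2 TPM in replicate 1 and 390 TPM in replicate 2, and 8 of 8 were called higher, with the creatine kinase gene Ckm at 3 and 1196 counts. The 7 brown adipocyte markers summed to 85.5 and 610 TPM, with 2 called higher, 2 lower (Dio2 and Ppargc1a) and the uncoupling protein gene Ucp1 at 69.1 and 420 TPM, not called. The 6 adipocyte markers summed to 399 and 2747 TPM, with 3 called higher and 3 not called, among them Adipoq. Of the 5 heart muscle markers, Myh6 and Nppa were at 0 in both libraries and the summed level was 0.62 and 13.4 TPM. In replicate 2 Cox8b, at 359.7 TPM, stood above Ckm at 78.2 TPM and below Ucp1 at 420 TPM. With the GC trend removed, 5 of the 8 skeletal muscle markers, 4 of the 6 adipocyte markers and 1 of the 7 brown adipocyte markers were called higher. That brown adipocyte marker was Ucp1, at a log2 ratio of 1.38. In the same setting 1 brown adipocyte marker, Prdm16 (-1.01), was called lower, while Dio2 (-0.25) and Ppargc1a (0.07) were not called. Over all genes 12.9% were then called higher and 11.9% lower. The part of muscle or fat RNA in the Cox8b and Cox7a1 levels was not tested.

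The remaining paralog groups were held by the general form. Cox4i2 had 1 and 33 counts, a ratio of 17.4 with a counting interval of 4.09 to 994, and made up 0.80% and 0.68% of the Cox4 pair. Ndufa4l2, known as a hypoxia-induced gene, had 5 and 322 counts and made up 0.071% and 4.57% of its pair with Ndufa4. The 6 smooth muscle and pericyte markers summed to 33.4 and 183 TPM, with 5 called higher and Rgs5 called lower, and their part in these levels was not tested. Of the testis paralogs, Cox6b2 had 0 and 27 counts, at least 6.66-fold higher and 0.88% of its pair in replicate 2, whereas Cox7b2 and Cox8c were at 0. The 5 male germ cell markers were at 0 in both libraries. Cox4i2, Ndufa4l2 and Cox6b2 were no longer called with the GC trend removed, while Cox6a2, Cox7a1 and Cox8b still were.

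**Figure D3:**
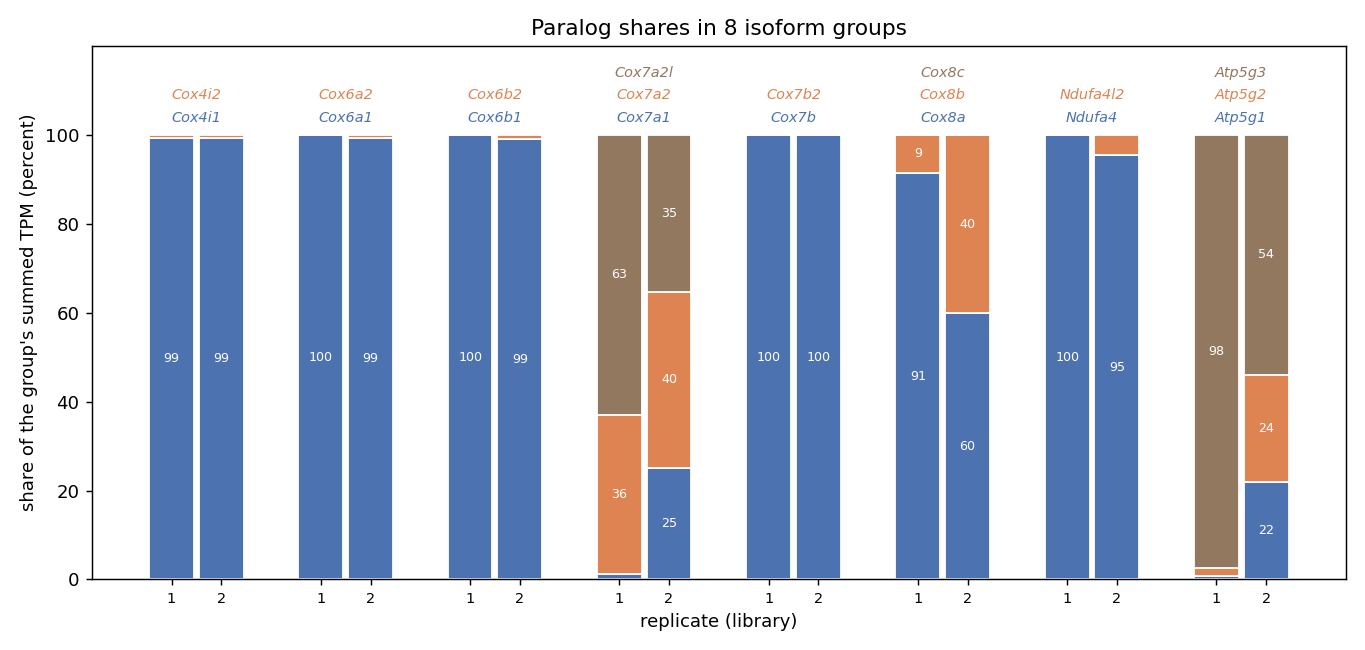
Share of each paralog in the summed TPM of its group (vertical axis, percent) in replicate 1 and replicate 2, for the 8 isoform groups, with gene names above the bars in the colour of their segment. In 5 of the 8 groups the general form holds over 95% in each library, and the Cox7a, Cox8 and c-subunit groups differ between the libraries.

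The ATP synthase mixed some of the most and some of the least abundant members of replicate 1. Of 17 members, 9 were called higher, 2 lower and 6 neither, with a median log2 ratio of 1.33. In the catalytic F1 head, Atp5b (beta) had 7906 and 26893 counts (140.5 and 1374 TPM) and was called higher, with a log2 ratio of 1.33. Atp5a1 (alpha), present in equal number with beta in the enzyme, had 7983 and 19549 counts (236.4 and 695 TPM) and was not called, at 0.86. The gamma shaft gene Atp5c1 had 4470 and 3893 counts and was not called either. Atp5d (delta), which joins the shaft to the ring, had 5 and 2634 counts, a ratio of 360 with a counting interval of 167 to 1202, and Atp5e (epsilon) had 69 and 1182 counts. In the F1 head, the levels thus spread from 0.12 to 236.4 TPM in replicate 1 and from 284.4 to 1374 TPM in replicate 2.

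In the peripheral stalk, which holds the head still, Atp5o had 326 and 2031 counts and was called higher, Atp5j had 3463 and 2178 and was called lower, and Atp5f1 and Atp5h were not called. Of the 4 membrane subunits, Atp5j2 (46 and 1859 counts), Atp5k (54 and 933) and Atp5l (91 and 2356) were called higher, and Atp5mpl (652 and 790) was not. The call of Atp5l ended when its counts were summed with those of its copies, at a log2 ratio of 0.79. Atp5s, known as factor B, had 313 and 160 counts (7.27 and 9.90 TPM), was called lower, and was the least abundant complex V member in replicate 2. The GC correction gave 11 complex V members called higher and 1, Atp5j, lower.

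A trio of genes encodes the c subunit, whose ring turns in the membrane as protons pass. They are known to make the same mature protein from different precursors. Atp5g3 (chr2:73908447-73911326) had 1921 and 4116 counts, Atp5g1 (chr11:96068852-96075670) 133 and 1543, and Atp5g2 (chr15:102662864-102672352) 31 and 1876, all on the minus strand. Atp5g3 held 97.5% of their summed TPM in replicate 1 and 54.0% in replicate 2, Atp5g2 1.67% and 24.1%, and Atp5g1 0.81% and 21.9%. By counts in place of TPM, Atp5g1 held 6.38% in replicate 1, since its 133 counts there were all assigned to a transcript of 4660 bases, against 596 bases for the transcript that held 98.0% of its TPM in replicate 2. The last 228 coding bases of each gene, the stretch that holds the mature protein, are printed with the 58 positions that differ among the genes in capitals. Over this stretch G and C made up 45.2% in Atp5g3, 54.4% in Atp5g1 and 55.3% in Atp5g2. Over all transcripts of each gene it was 46.6%, 47.9% and 57.1%. In that order the log2 ratios were 0.67, 3.10 and 5.47, and 1.40, 3.51 and 2.08 with the GC trend removed, all called higher. With the GC content of the leading transcript, Atp5g3 was not called, at 0.26. The part of GC content in the shares was not tested.
Atp5g1: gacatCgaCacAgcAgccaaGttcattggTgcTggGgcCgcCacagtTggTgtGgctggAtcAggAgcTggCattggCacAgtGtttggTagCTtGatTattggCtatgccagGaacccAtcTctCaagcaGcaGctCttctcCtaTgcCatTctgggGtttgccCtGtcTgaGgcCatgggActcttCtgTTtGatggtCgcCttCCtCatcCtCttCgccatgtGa
Atp5g2: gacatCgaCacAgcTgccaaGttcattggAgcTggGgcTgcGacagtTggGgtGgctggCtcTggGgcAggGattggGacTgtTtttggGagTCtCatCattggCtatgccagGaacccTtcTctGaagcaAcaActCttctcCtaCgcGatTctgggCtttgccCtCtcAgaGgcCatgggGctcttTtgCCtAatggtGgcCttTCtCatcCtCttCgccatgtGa
Atp5g3: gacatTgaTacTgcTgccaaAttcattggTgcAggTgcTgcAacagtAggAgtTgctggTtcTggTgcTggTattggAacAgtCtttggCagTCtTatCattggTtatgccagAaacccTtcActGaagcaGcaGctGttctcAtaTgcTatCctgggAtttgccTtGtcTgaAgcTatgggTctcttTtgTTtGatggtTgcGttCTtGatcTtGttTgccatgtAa

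The libraries also assigned the members' reads to different transcripts. Protein-coding transcripts took 76.5% of the members' counts in replicate 1 and 97.1% in replicate 2, while the same shares over all nuclear protein-coding genes were 93.6% and 96.1%. Transcripts annotated as subject to nonsense-mediated decay took 11.5% and 0.81% of the members' counts, against 1.74% and 1.11% over all those genes. Retained-intron transcripts took 9.31% and 1.00%, against 2.26% and 1.35%. A few members held most of these counts in replicate 1. Of 9191 counts on decay transcripts, 5388 were of Atp5f1 and 3429 of Atp5a1. Of 7439 on retained-intron transcripts, 3077 lay on 1 transcript of Atp5j and 1494 on 1 of Cox7b. The median member had a coding share of 100% in replicate 1. Of the 75 members with counts in both libraries, 32 had a lower coding share in replicate 1, 9 a higher one and 34 the same. The coding share was under 50% for 14 members in replicate 1 and for 1, Ndufa5, in replicate 2.

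Of the 75 members, 51 had more than 1 transcript. In 27 of these the leading transcript, the one with most TPM, differed between the libraries. In 23 of the 27 the leading transcript of replicate 1 had the lower GC content, with a median of 50.55% against 55.29%. In 23 it was the shorter one, with a median length of 526 against 809 bases. The same counts over all genes are not given here, so these do not set the members apart from other genes. Examples outside the naming rule were chosen after their values were seen. For Atp5a1 a transcript of 774 bases marked for nonsense-mediated decay held 74.5% of TPM in replicate 1 and 0.10% in replicate 2, where the full transcript of 2471 bases held 98.1%. For Uqcrc1 the full transcript of 1653 bases had 0 counts in replicate 1 and 98.6% of TPM in replicate 2, and a transcript of 580 bases held 88.3% in replicate 1. For Atp5j a retained-intron transcript of 526 bases held 92.3% and 43.3%. Atp5f1, the b subunit of the stalk, had 1.55% of its counts on coding transcripts in replicate 1 and 69.1% in replicate 2. When only counts on protein-coding transcripts were used, an alternative added after the data were seen, 57 members were called higher and 3 lower, against 38.5% and 27.6% of all genes, and the median log2 ratio was 2.86. Ndufb4 and Atp5j then changed from lower to higher, with log2 ratios of 1.34 and 1.57.

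**Figure D4:**
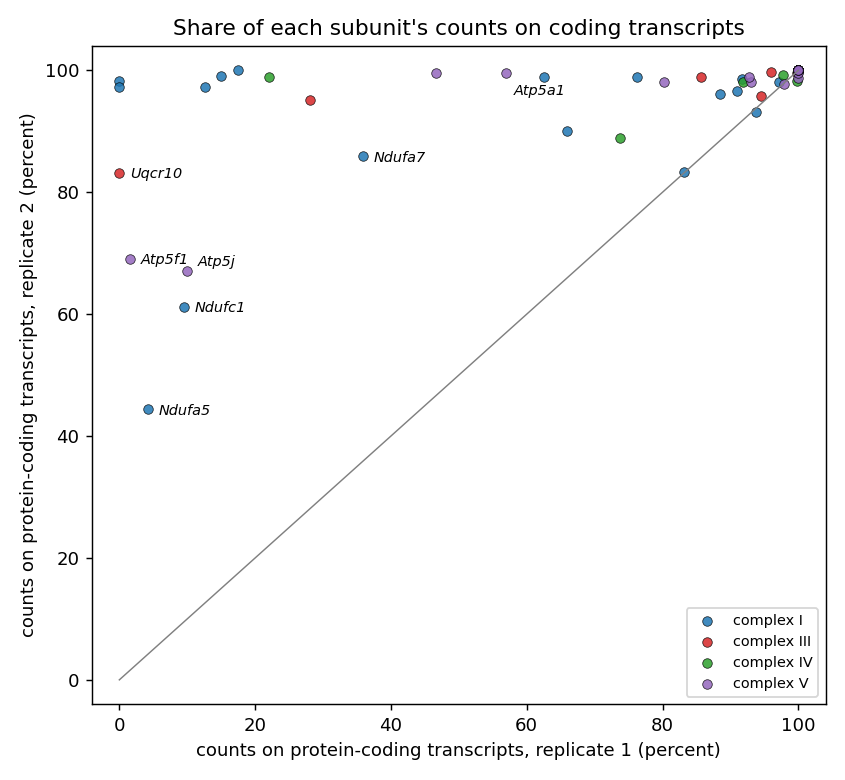
Share of each member's counts on protein-coding transcripts in replicate 1 (horizontal axis, percent) and in replicate 2 (vertical axis, percent), for the 75 members with counts in both libraries, coloured by complex, with a line of equal shares. The points above the line toward the left edge are the 14 members with under 50% in replicate 1.

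Some members shared their reads with near-identical processed pseudogenes, and the split differed between the libraries. Atp5l, which encodes the g subunit of the membrane part, had 90.9 and 2356 counts, while its 6 copies had 1042 and 283, which is 92.0% and 10.7% of the sum. All of the copies' counts lay on Gm10221, identical to the messenger over 309 bases. Summed with its copies, Atp5l had a log2 ratio of 0.79 in place of 4.25 and was not called. Ndufs5 had 57.1% and 0.51% of its sum on the copy BC002163, and Atp5g2 had 36.2% and 1.73% on 2 copies. Both were still called higher in sum, at log2 ratios of 3.20 and 4.87. Ndufb4 is a separate case. The pseudogene Ndufb4c is 390 bases long and identical over all 390 to the coding sequence of Ndufb4 (chr16:37647170-37654453, minus strand). Its row held 130 counts in replicate 1 and 770 in replicate 2, against 548 and 345 for Ndufb4. In sum they had 678 and 1115 counts and a log2 ratio of 0.28 in place of -1.10, above 0 and within the fold minimum. The levels of Ndufb4, Atp5l, Ndufs5 and Atp5g2 are therefore uncertain. Cox4i1 lies on the same strand as the overlapping gene Gm20388, which had 164 and 1079 counts.

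Genes that work with the subunits were called in both directions. Beside the counts below, 36.5% of all tested genes were called higher and 27.7% lower. All 4 genes of complex II were detected, with the flavoprotein gene Sdha at 92.6 and 372 TPM and Sdhd at 32.6 and 176 TPM, neither called. Sdhb (16.7 and 285 TPM) and Sdhc were called higher, and the list's median log2 ratio was 1.43. The gene of the mobile carrier cytochrome c, Cycs, had 4584 and 1574 counts and was called lower, but was not called with the GC trend removed, at a log2 ratio of -0.27. The acyl carrier gene Ndufab1 (128 and 262 TPM) was not called. Of 15 complex I assembly genes, 4 were called higher and 4 lower, and the 3 with the highest TPM averaged over the libraries, Ndufaf1, Ndufaf2 and Tmem126b, were among the lower. In replicate 2 alone the highest was Ndufaf8, called higher. Of 6 complex III assembly genes, 3 were called higher, with Uqcc2 at 4.05 and 237 TPM, and 2 lower. Of 18 complex IV assembly genes, 8 were called higher, with Cox14 at 8.78 and 175 TPM, and 4 lower, with Cox20 at 154 and 106 TPM. The copper carrier Cox17 (25.9 and 251 TPM) was not called. Of the 4 genes for complex V assembly and inhibition, 1 was called higher and 2 lower, Atpaf1 and Tmem70, while the inhibitor gene Atpif1 (47.1 and 219 TPM) was not called. With the GC trend removed, 1 complex II gene, Sdhc, and 2 genes of each assembly list for complexes I, III and IV were called higher. None of these lists held a gene called lower, and no gene of the complex V list was called. In that setting 12.9% of all genes were called higher and 11.9% lower.

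Of 10 transcriptional regulators of mitochondrial genes, 3 were called higher and 6 lower, with a median log2 ratio of -1.08. Tfam, which packages and transcribes mitochondrial DNA, was at 41.6 and 35.2 TPM, Tfb2m at 41.8 and 32.5 TPM and Yy1 at 32.0 and 39.5 TPM, and all 3 were called lower. After the GC correction, 1 of the 10 was called higher, Esrra with 0 and 422 counts, and 1 lower, Yy1. The list's median log2 ratio was then 0.04, and 12.9% of all genes were called higher and 11.9% lower. The 13 mRNAs of the mitochondrial genome, which encode the partners of the members in complexes I, III, IV and V, were all called lower, at a median log2 ratio of -3.18. Their median TPM was 29593 and 7242. No member lay above the lowest of them in replicate 1, whereas 25 of the 81 did in replicate 2. With the GC trend removed, 4 of the 13 were called lower and 0 higher. Counts on the nuclear copies of mitochondrial genes are not part of these values, and their effect on the 13 was not tested. The lists were small, and no list was tested as a set.

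Promoter sequence was searched for the letters of factors known to control these genes. Promoter windows of 300 bases, from 250 before to 50 after a RefSeq start (GRCm38.p6), were found by symbol for 63 members. The NRF1 core CGCATGCGC was present on either strand in 8 of the 63 (12.7%), against 1.95% of all 27025 genes with a window and 2.61% of 17492 protein-coding ones. The ETS core CCGGAAG, bound by GABP, was present in 14 (22.2%), against 9.93% and 12.95%. The YY1 core AAGATGGCG was present in 7 (11.1%), against 1.64% and 2.14%, and the TATA box TATAAA in 7 (11.1%), against 15.7% and 14.8%. No core contains another, and the NRF1 core without its last base reads the same on both strands. The members' windows had a median of 57.0% G and C, against 52.7% for all windows. Members with the NRF1 core were Ndufa8, Ndufa11, Uqcr11, Uqcrc1, Cox6a1, Atp5g2, Atp5k and Atp5l. A match describes letters and is not a binding site. For 3 of these genes the 100 bases before and 4 bases after the start are printed with NRF1 and ETS letters in capitals: Uqcr11 (chr10:80406818-80406921), Atp5g2 (chr15:102671044-102671147) and Atp5k (chr5:108434396-108434499), all on the minus strand.
Uqcr11 promoter: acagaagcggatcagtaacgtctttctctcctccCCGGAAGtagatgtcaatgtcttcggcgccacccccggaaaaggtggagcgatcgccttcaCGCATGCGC
Atp5g2 promoter: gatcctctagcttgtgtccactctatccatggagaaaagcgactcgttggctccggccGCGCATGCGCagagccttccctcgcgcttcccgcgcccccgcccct
Atp5k promoter: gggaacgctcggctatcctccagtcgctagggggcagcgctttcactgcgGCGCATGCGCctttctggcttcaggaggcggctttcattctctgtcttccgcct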

How the data were processed

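Polyadenylated RNA of mouse adrenal gland was sequenced in 2 libraries labelled as technical replicates of 1 biological sample. The deposited gene and transcript tables give, per the file headers, an expected count, TPM and FPKM for each gene, and for each transcript also its percent of the gene's TPM. A posterior mean of TPM with interval bounds, treated here as a score, is in the same tables as deposited by the authors. Per the text notes deposited with them, reads were assigned to mm10 with GENCODE M4. For the aligner, the counting program and the strand setting, the sources used here give no name. The text notes themselves hold no measurements and were not used further.

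Expected counts were rounded to whole numbers. TMM factors from edgeR 4.0.16 (R 4.3.3) set the library sizes. Every gene with at least 20 counts in sum entered a two-sided exact binomial test of its counts in the libraries (scipy 1.17.1), with Benjamini-Hochberg adjustment over all such genes. A gene was called at an adjusted p under 0.05 and a fold of at least 2. Log2 ratios are replicate 2 over replicate 1 with a prior of 0.5 counts. Against 0 counts a fold is given as a bound, with 3 counts as the floor in that library. Intervals are 95% and, like the floors, cover counting error only, since read pairs are not independent molecules. The procedure was tested on simulated data. Those counts held counting error alone and no trend with GC content or length. They therefore cannot show how the test behaves under such trends. Depth was 28267651 and 17376660 counts.

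Symbols, coordinates (GRCm38), transcript types and GC content came from GENCODE M21 by Ensembl identifier, and 42462 of 43346 genes matched a symbol. GC content of a gene was taken over all bases of its transcripts in the tables. The GC trend was a lowess curve with a span of 0.3 (statsmodels 0.14.6) over all tested genes, subtracted before the same test. Near-identical copies were transcripts of other genes that matched 50% or more of the member transcript with the largest share of TPM in replicate 2 at 95% identity or more (BLAST 2.17.0). Promoter windows came from RefSeq by symbol, as the table gives them for GRCm38.p6.

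The members and gene lists were chosen with earlier results of these data known. Named by rule were all members of the isoform groups, the 3 highest and 2 lowest members of each complex by mean TPM, the 5 highest and 5 lowest log2 ratios, members with 0 counts in 1 library and at least 20 in the other, and up to 3 genes of each pathway list by mean TPM. Every other gene named was chosen after its values were seen. With 1 biological sample, p-values measure only the difference between these libraries. Alternatives were other scalings, count, fold and prior settings, trends with GC and length, other level scales, coding transcripts alone, and sums with copies.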

Additional observations from a re-analysis of the deposited data

Results flagged for a closer look

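Ndufb4c, a pseudogene that matched the symbol pattern but is not a member, had 130 counts in replicate 1 and 770 in replicate 2, above the limit of 3 counts that a count of 0 allows. Its 390 bases are identical to the coding sequence of Ndufb4, which had 548 and 345 counts.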

How the results depend on the processing

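More members were called higher than lower, and the median log2 ratios of all members and of complexes III, IV and V were above 0, under every alternative of the library comparison that was run. Single members did not. Sign changes below are named for the 35 members of the naming rule, and the count over all 79 tested members stands beside them. Alternatives on the leading transcript, coding transcripts, copies and Ndufb4c were chosen after seeing the data. Where the setting itself does not show it, the cause was not tested.

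With total-count scaling, the median log2 ratio was 3.18 for all members and 2.54, 5.46, 4.60 and 2.47 for complexes I, III, IV and V, and 0 members were called lower in all and in complexes I, III and V. A total of 15 members changed sign, by rule Atp5j (0.034), Cox7b (0.55), Ndufa4 (0.67), Ndufb4 (0.035), Ndufc1 (0.89) and Ndufs4 (0.46). DESeq2 size factors gave a median of 1.28 for complex V, and testing without a count minimum gave 1.39. A 4-fold minimum left 0 members lower in all and in complexes I, III and V. Without a fold minimum, 16 were lower, with 7, 2, 2 and 5 in complexes I, III, IV and V.

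Removing the GC trend gave medians of 1.21 in all and 1.03, 2.29, 1.02 and 1.40 for complexes I, III, IV and V. It left 7 complex IV members higher, and 0 lower in complex III, 1 in IV and 1 in V. A total of 17 members changed sign, by rule Atp5a1 (-0.027), Atp5s (0.65), Cox6a1 (-1.05), Cox7b (0.92), Cox8a (-0.28), Ndufa4 (0.46), Ndufa6 (-0.69), Ndufc1 (0.84) and Ndufs4 (0.75). With the GC content of the leading transcript, the medians were 0.95 in all and 0.70, 1.25, 1.02 and 0.78. There were 15 higher in complex I and 7 in IV, and 3 lower in all with 0 in complexes III and V. A total of 21 members changed sign, by rule Atp5j (0.78), Atp5s (0.55), Cox6a1 (-0.28), Cox7b (0.95), Cox8a (-0.32), Ndufa4 (0.39), Ndufa6 (-0.76), Ndufc1 (1.76) and Ndufs4 (0.69).

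Removing the length trend gave medians of 0.36 in all and -0.0059, 2.44, 1.58 and 0.26, so that of complex I turned. It called 14 complex I members higher and 23 members lower, with 9, 2, 6 and 6 by complex. A total of 19 members changed sign, by rule Atp5b (-0.12), Atp5g3 (-0.93), Cox6b1 (-1.25), Cox7a2l (-0.016), Ndufa6 (-0.95), Uqcrfs1 (-0.13) and Uqcrh (-0.39). Removing both trends gave medians of 0.75 in all and 0.75, 1.96, 0.63 and 0.90. It left 33 higher, with 15 in complex I and 5 in IV, and 0 lower in complex III, 1 in IV and 1 in V. A total of 20 members changed sign, by rule Atp5a1 (-0.092), Atp5s (0.58), Cox6a1 (-1.63), Cox6b1 (-0.53), Cox7b (0.33), Cox8a (-0.88), Ndufa6 (-1.28), Ndufc1 (0.26) and Ndufs4 (0.70).

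Coding transcripts alone gave medians of 2.86 in all, 2.73, 4.83 and 3.03 for complexes I, III and V, and 3 lower, with 1 in complex I and 1 in V. A total of 6 members changed sign, by rule Atp5j (1.57), Cox7b (1.502), Ndufb4 (1.34) and Ndufc1 (2.37), and outside it Atp5f1 (4.41) and Ndufa5 (3.15). Sums with copies gave medians of 1.71 in all and 0.86 for complex V. The sum with Ndufb4c gave 0.28 for Ndufb4. TPM rescaled over nuclear genes moved the median of the members' mean TPM to 216, 321 and 501 for complexes I, IV and V, from 97.8, 160 and 223.

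With each library left out in turn, the library comparison gives no value, and 66 to 79 members reached 1 TPM. The median TPM ran from 15.3 to 176 for complex I, 9.53 to 381 for III, 12.7 to 232 for IV and 24.3 to 357 for V. A count of 0 in replicate 1 allows up to 3 counts, so folds of Uqcr11, Ndufa13, Cox6a2 and Cox6b2 are lower bounds. No paired analysis was possible because there is 1 group of 2 technical libraries.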
